A study of Mus musculus with 79 samples.

Results

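The chemokine ligands are the secreted and membrane-bound proteins that guide leukocytes through tissue, and 35 genes of this family were measured among the 31350 features of the array table. A gene was taken as a member when its row mapped to a mouse symbol of the Ccl or Cxcl series, or to Cx3cl1, Xcl1, Ppbp or Pf4, and Ccl27a, which had more than 1 row, was represented by its brightest row. The rule used symbols alone and no measured difference, but it was set with earlier results of these data known. Cxcl2, Cxcl11, Ccl20 and the Ccl21 genes were not analysed here. RNA came from the homogenised right lung of 79 C57BL/6J mice aged 5 to 7 weeks, either wild type (WT) or transgenic littermates that overexpress Scnn1b, the β subunit of the epithelial sodium channel, in the airway epithelium (βENaC mice). These mice carry dehydrated airway mucus and a chronic bronchitis from early life, without any exposure. Mice of both genotypes and both sexes were exposed to the smoke of 6 reference cigarettes a day or to room air (sham), for 1 day or for 5 days, and the lungs were taken 4 hours after the last exposure. With the sexes pooled, each genotype, exposure and duration group held 9 to 11 mice.

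Chemokines bind G protein-coupled receptors on leukocytes and draw the cells along a gradient. CXC ligands with a Glu-Leu-Arg motif act on neutrophils, CC ligands act mainly on monocytes, macrophages, eosinophils, dendritic cells and T cells, and a few members such as Cxcl12 and Cxcl15 are made steadily by stromal or epithelial cells of the healthy lung. Many inflammatory chemokine genes are switched on by NF-κB, by interferons or by the type 2 cytokines.

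Every value given is a log2 intensity or a difference of log2 intensities from a linear model with terms for genotype, exposure and sex, fitted to each duration separately by limma. A member was called when its Benjamini-Hochberg adjusted p, taken over all features, was below 0.05 and its difference exceeded 1.3-fold. In homogenised lung, more cells that make a chemokine and more of its RNA per cell cannot be told apart. Scnn1b was between 8.42 and 9.47 in the WT mice and between 11.52 and 11.88 in the βENaC mice at both durations, with no overlap, so the transgene matched the genotype labels in each mouse. The study's code notes that 1 mouse had been relabelled as WT by its Scnn1b level, for which this is no independent check, and that 1 mouse was removed for a wrong exposure label. In 13 WT mice a free-text source label named the other genotype. The medians of the arrays lay between 4.44 and 4.55. No probe-level background call was used, and intensities near 3 lie far below those medians.

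The promoters of 4 members are shown because their genes were higher in the βENaC lung and because each holds a match to a motif of a pathway that is known to induce it. They are the 250 bases before the RefSeq start in build GRCm38.p6, with the motif in capitals. Cxcl1 (chr5:90890995-90891244, plus strand) and Cxcl3 (chr5:90785851-90786100, plus strand) encode neutrophil attractants of the same cluster on chromosome 5, and both hold the κB motif (GGGA, any base, TTTCC) within 73 bases of the start. Ccl17 (chr8:94810203-94810452, plus strand), which encodes a T cell attractant, holds the STAT6 motif (TTC and GAA around 4 bases of any kind), and its window lies inside the gene span that RefSeq lists. Cxcl10 (chr5:92348890-92349139, minus strand), an interferon-induced T cell attractant, holds the interferon-stimulated motif (TTTC, 2 bases of any kind, TTTC) on the opposite strand.
Cxcl1: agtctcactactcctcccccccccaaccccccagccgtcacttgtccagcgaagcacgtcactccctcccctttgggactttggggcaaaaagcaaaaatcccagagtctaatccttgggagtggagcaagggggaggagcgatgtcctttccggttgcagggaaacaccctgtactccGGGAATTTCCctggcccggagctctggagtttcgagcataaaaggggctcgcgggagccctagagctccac
Cxcl3: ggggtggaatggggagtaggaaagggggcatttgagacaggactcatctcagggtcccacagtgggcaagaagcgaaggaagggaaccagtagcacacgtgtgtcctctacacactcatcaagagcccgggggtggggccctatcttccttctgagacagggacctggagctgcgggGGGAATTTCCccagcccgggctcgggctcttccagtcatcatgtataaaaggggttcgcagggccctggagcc
Ccl17: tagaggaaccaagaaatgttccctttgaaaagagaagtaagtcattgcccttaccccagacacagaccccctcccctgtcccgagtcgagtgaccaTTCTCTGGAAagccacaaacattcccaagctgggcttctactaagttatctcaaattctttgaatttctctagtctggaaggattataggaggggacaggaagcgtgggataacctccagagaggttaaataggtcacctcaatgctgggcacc
Cxcl10: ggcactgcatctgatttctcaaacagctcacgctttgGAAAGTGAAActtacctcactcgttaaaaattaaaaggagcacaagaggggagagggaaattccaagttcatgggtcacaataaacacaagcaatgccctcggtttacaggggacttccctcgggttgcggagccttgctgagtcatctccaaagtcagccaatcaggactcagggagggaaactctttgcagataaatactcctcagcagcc
Searched on both strands of 32851 such RefSeq windows, the κB motif was found in 0.356%, the STAT6 motif in 5.85% and the interferon-stimulated motif in 2.98%. A window was at hand for 25 members, of which 2 held the κB motif, 1 the STAT6 motif and 3 the interferon-stimulated motif (Ccl19, Cxcl10 and Cxcl14).

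Many chemokine ligands were higher in the βENaC than in the WT lung, led by Ccl3, Ccl24 and Cxcl5. At 1 day, 12 of 35 members were higher in βENaC than in WT lungs and 1 was lower, where 1.54% of all features were called (1.13% higher and 0.418% lower). At 5 days 18 of 35 members were higher and none was lower, where 2.52% of all features were called (1.87% higher and 0.651% lower). At 5 days 3 members, Cx3cl1, Cxcl14 and Ccl27b, had negative differences with an adjusted p below 0.05 that did not reach 1.3-fold, where 5.33% of all features had a negative difference at that p. The median genotype difference over the 35 members was 0.34 at 1 day and 0.43 at 5 days, against 0.00 and -0.01 over all features. The term for genotype by duration was below an adjusted p of 0.05 for none of the members, nor for any feature of the array, so that the larger count at 5 days is not shown to be a larger difference.

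**Figure D1:**
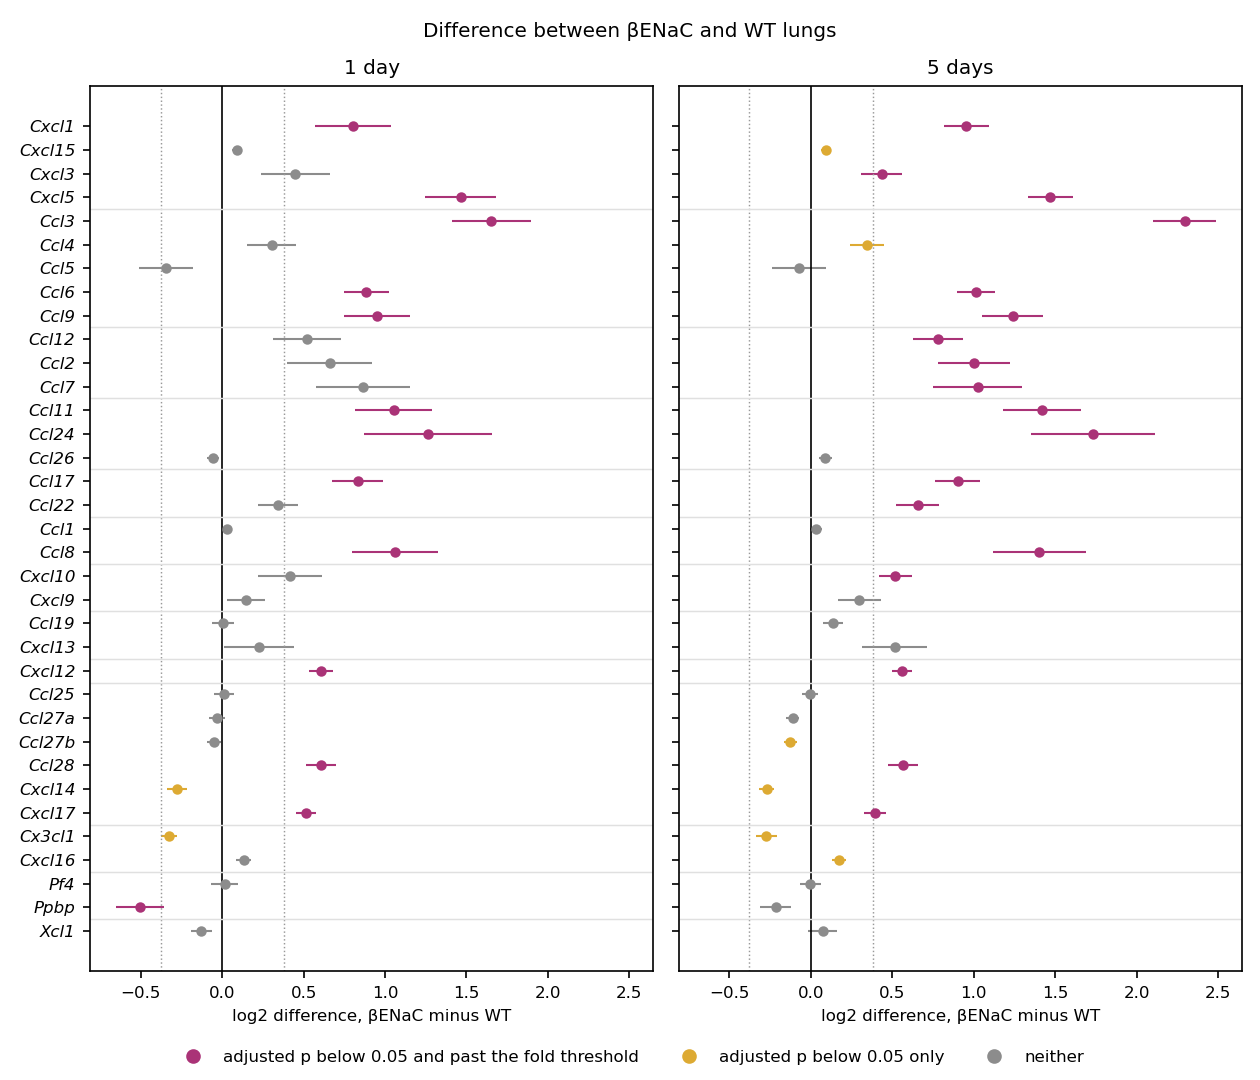
Differences in log2 intensity between βENaC and WT lungs (x axis, βENaC minus WT, with the standard error) for the 35 chemokine ligands at 1 day and at 5 days, grouped by receptor or role. Purple points were called, yellow points had an adjusted p below 0.05 alone, and dotted lines mark the 1.3-fold limits. Most called members lie to the right of 0, with Ccl3 the farthest at 2.30 after 5 days.

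The neutrophil attractants with a Glu-Leu-Arg motif came first in the family's roles. Cxcl5, made by airway and alveolar epithelium and a ligand of CXCR2, had in WT mice a lowest, median and highest value of 3.29, 3.80 and 4.10 at 1 day and of 3.37, 3.82 and 4.12 at 5 days. In βENaC mice the same values were 4.02, 5.18 and 8.27 at 1 day and 4.10, 5.43 and 6.29 at 5 days. All but 1 of the βENaC mice at each duration lay above the highest WT mouse. The difference was 1.46 ± 0.22 (SE, n = 20 and 20) at 1 day (adjusted p = 1.68e-05) and 1.47 ± 0.14 (SE, n = 19 and 20) at 5 days (adjusted p = 6.63e-10). Cxcl1, a CXCR2 ligand whose promoter is shown above, was between 3.02 and 3.76 in WT mice at 1 day and between 3.06 and 7.73 in βENaC mice, with 11 of 20 βENaC mice above every WT mouse. At 5 days its range was 3.13 to 4.17 in WT mice and 3.44 to 5.50 in βENaC mice. The Cxcl1 difference was 0.81 ± 0.23 at 1 day (adjusted p = 0.029) and 0.95 ± 0.14 at 5 days (adjusted p = 3.74e-06). Without replicate 3 or replicate 4 of the 1-day smoke-exposed βENaC females the 1-day call was lost, with an adjusted p of at most 0.0522. Cxcl3, its neighbour on chromosome 5, stayed near the bottom of the scale in WT mice, between 2.75 and 3.36 at 5 days, and reached 4.58 in βENaC mice (difference 0.43 ± 0.13, adjusted p = 0.019). At 1 day the Cxcl3 difference of 0.45 ± 0.21 did not pass (adjusted p = 0.256). The 5-day call was lost without replicate 3 of the smoke-exposed βENaC females and without replicate 3 of the sham βENaC females.

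**Figure D2:**
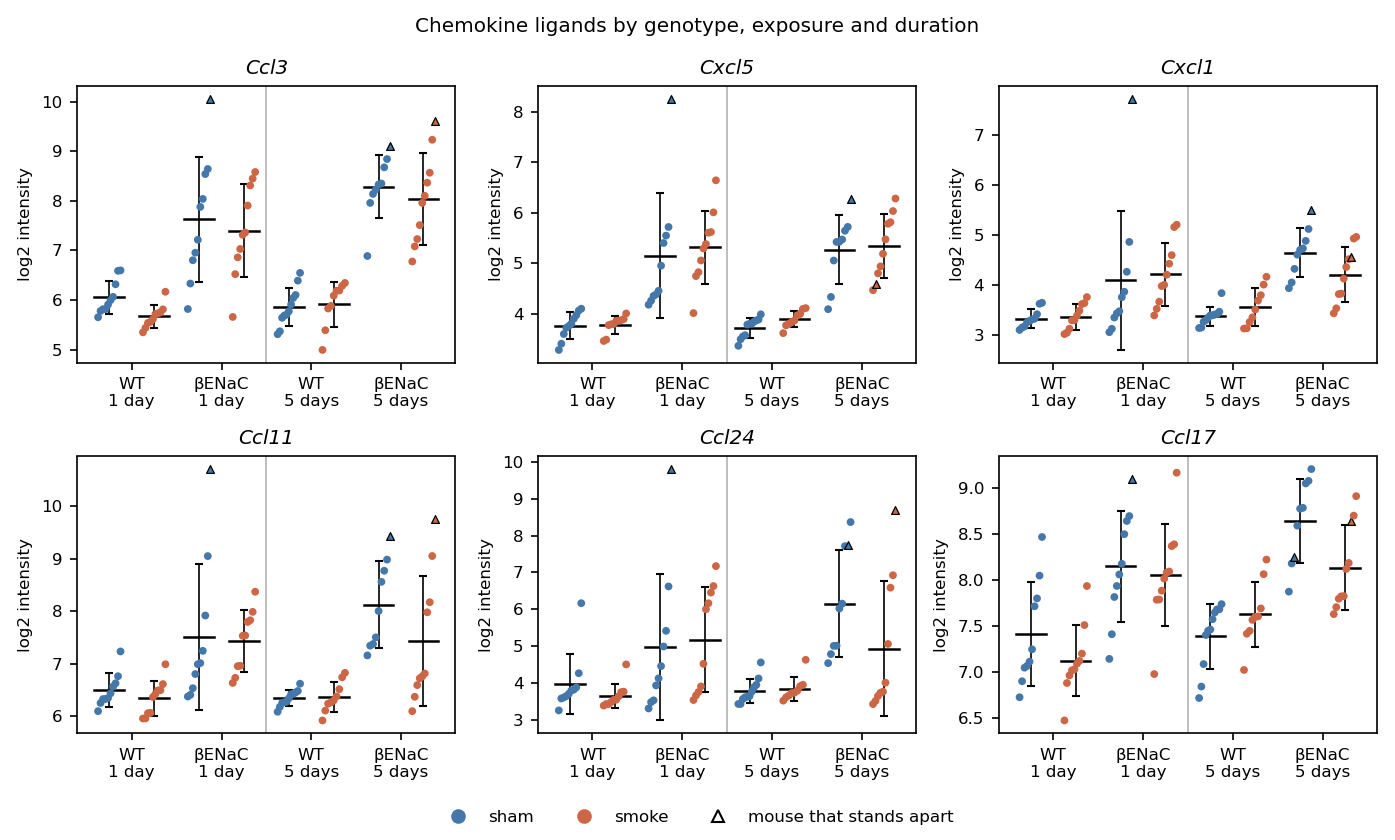
Log2 intensity (y axis) of 6 chemokine ligands in each mouse, by genotype, duration and exposure. Blue points are sham and orange points smoke-exposed mice, bars give the mean and SD, and triangles mark the 3 mice that stand apart; the βENaC mice reach higher values than the WT mice in each panel, and at 5 days all 19 βENaC mice lie above all WT mice for Ccl3.

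Of the 5 CC ligands Ccl3, Ccl4, Ccl5, Ccl6 and Ccl9, which attract monocytes, macrophages and T cells, 3 were called at both durations. Ccl3, the macrophage inflammatory protein 1α, had the largest genotype difference of the 35 members at both durations. In WT mice its lowest, median and highest values were 5.35, 5.80 and 6.598 at 1 day and 4.99, 5.90 and 6.55 at 5 days. In βENaC mice they were 5.66, 7.34 and 10.06 at 1 day and 6.78, 8.23 and 9.60 at 5 days. The genotypes overlapped at 1 day, when 16 of 20 βENaC mice lay above every WT mouse, and did not overlap at 5 days. The difference was 1.65 ± 0.24 at 1 day, a 3.15-fold change (adjusted p = 9.82e-06), and 2.30 ± 0.19 at 5 days, a 4.92-fold change (adjusted p = 3.61e-11). Ccl6 and Ccl9, CCR1 ligands that mouse myeloid cells make in quantity, moved by less. Ccl6 was between 9.74 and 10.57 in WT mice at 5 days and between 10.11 and 11.87 in βENaC mice, 17 of which lay above every WT mouse (difference 1.01 ± 0.12, adjusted p = 5.23e-08). Ccl9 was between 8.01 and 9.39 in WT mice at 5 days and between 8.44 and 11.35 in βENaC mice, and the difference was 1.24 ± 0.19 (adjusted p = 1.05e-05). At 1 day the differences were 0.88 ± 0.14 for Ccl6 (adjusted p = 3.08e-05) and 0.95 ± 0.20 for Ccl9 (adjusted p = 0.00198). Ccl4, the close relative of Ccl3, differed by 0.35 ± 0.10 at 5 days (adjusted p = 0.0238), short of the fold limit. RefSeq lists overlapping spans for Ccl3 and Ccl4, and whether the array separates their signals is uncertain. Ccl5, made by T and NK cells, differed by -0.34 ± 0.17 at 1 day and -0.07 ± 0.16 at 5 days, and neither passed.

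The CCR2 ligands Ccl2, Ccl7 and Ccl12, which recruit inflammatory monocytes, were all called at 5 days and none at 1 day. Ccl2 ranged from 3.57 to 4.40 in WT mice and from 3.56 to 7.11 in βENaC mice at 5 days, with medians of 3.82 and 4.69. In 11 of 19 βENaC mice Ccl2 was above every WT mouse, whereas 1 was below every WT mouse. The differences at 5 days were 1.00 ± 0.22 for Ccl2 (adjusted p = 0.0017), 1.02 ± 0.27 for Ccl7 (adjusted p = 0.011) and 0.78 ± 0.16 for Ccl12 (adjusted p = 0.000537). At 1 day they were 0.66 ± 0.26, 0.86 ± 0.29 and 0.52 ± 0.21, with adjusted p values of 0.148, 0.0703 and 0.15. Ccl7 joined the called members at 1 day once the 3 mice described further on were left out.

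Among the CCR3 ligands, which attract eosinophils, Ccl11 and Ccl24 (eotaxin 1 and eotaxin 2) were called at both durations and Ccl26, between 2.55 and 3.12 in both genotypes, at neither. Ccl24 was 3.25, 3.64 and 6.16 (lowest, median, highest) in WT mice at 1 day and 3.30, 4.48 and 9.80 in βENaC mice. At 5 days the values were 3.42, 3.73 and 4.62 in WT mice and 3.42, 5.01 and 8.69 in βENaC mice. The βENaC mice ran from the WT floor to far above the WT range, with 12 of 19 above every WT mouse at 5 days. The Ccl24 difference at 5 days was 1.73 ± 0.38, a 3.32-fold change (adjusted p = 0.00161). At 1 day it was 1.26 ± 0.39 (adjusted p = 0.0453), and 28 of the 40 fits that left out 1 mouse took it past 0.05, up to an adjusted p of 0.079. Ccl11 lay between 5.91 and 6.82 in WT mice at 5 days and between 6.09 and 9.76 in βENaC mice (difference 1.42 ± 0.24, adjusted p = 5.93e-05), and its difference at 1 day was 1.05 ± 0.23 (adjusted p = 0.00312). The CCR8 ligand Ccl8, an attractant of type 2 helper T cells in the mouse, differed by 1.06 ± 0.26 at 1 day (adjusted p = 0.00854) and by 1.402 ± 0.28 at 5 days (adjusted p = 0.000694). Ccl1, the other CCR8 ligand, stayed between 2.83 and 3.37 in both genotypes and at both durations.

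The CCR4 ligands Ccl17 and Ccl22, products of dendritic cells and macrophages that attract T helper 2 and regulatory T cells, were both called at 5 days. Ccl17 had WT values of 6.72, 7.58 and 8.23 (lowest, median, highest) and βENaC values of 7.63, 8.25 and 9.21 at 5 days, and 10 of 19 βENaC mice were above the WT range. The Ccl17 difference was 0.90 ± 0.14 at 5 days (adjusted p = 1.17e-05) and 0.83 ± 0.16 at 1 day (adjusted p = 0.000439). Ccl22 differed by 0.66 ± 0.13 at 5 days (adjusted p = 0.000621) and by 0.34 ± 0.12 at 1 day (adjusted p = 0.0911).

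Of the chemokines made by structural cells, Cxcl12, the CXCR4 ligand of stroma and endothelium that holds leukocytes and progenitors in place, differed by 0.61 ± 0.07 at 1 day (adjusted p = 2.18e-07) and 0.56 ± 0.06 at 5 days (adjusted p = 2.07e-08). Its spread was narrow, and 17 βENaC mice at each duration were above the highest WT mouse. Cxcl17, a mucosal chemokine of airway epithelium, differed by 0.51 ± 0.06 at 1 day (adjusted p = 3.14e-07) and 0.39 ± 0.07 at 5 days (adjusted p = 8.58e-05). The 5-day Cxcl17 difference lay just above 1.3-fold and its call was lost without replicate 1 of the sham βENaC females, replicate 2 of the smoke-exposed βENaC males or replicate 5 of the sham WT males. Ccl28, a mucosal ligand of CCR3 and CCR10, differed by 0.61 ± 0.09 (adjusted p = 2.48e-05) and 0.57 ± 0.09 (adjusted p = 3.93e-05). Cxcl14 and Cx3cl1, by contrast, had negative differences at both durations that did not reach 1.3-fold. For Cxcl14, a homeostatic epithelial chemokine, they were -0.28 ± 0.06 (adjusted p = 0.00335) and -0.27 ± 0.05 (adjusted p = 5.8e-05). For Cx3cl1, the membrane-anchored ligand of CX3CR1, they were -0.33 ± 0.05 (adjusted p = 1.97e-05) and -0.27 ± 0.07 (adjusted p = 0.00496). The CXCR3 ligand Cxcl10 was called at 5 days (0.52 ± 0.10, adjusted p = 0.000397) but not at 1 day (0.42 ± 0.19, adjusted p = 0.251), and its fellow CXCR3 ligand Cxcl9 was called at neither. Neither Ccl19 nor Cxcl13, which organise lymphoid tissue, nor Xcl1, the attractant of cross-presenting dendritic cells, passed at either duration. Of the remaining epithelial and membrane-anchored ligands, Ccl25 and Ccl27a did not pass either, and Cxcl16, the ligand of CXCR6, differed by 0.17 ± 0.04 at 5 days (adjusted p = 0.00515), short of 1.3-fold.

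The platelet chemokine Ppbp was the single member called lower in βENaC mice, at 1 day, by -0.51 ± 0.15 (adjusted p = 0.0345), with WT mice between 6.97 and 9.34 and βENaC mice between 6.66 and 9.07. In 12 of the 40 fits that left out 1 mouse the Ppbp call was lost, with adjusted p values up to 0.0617, and at 5 days the difference was -0.22 ± 0.10 (adjusted p = 0.159). Ppbp was also the member with a called sex difference. It was higher in males by 0.60 ± 0.15 at 1 day (adjusted p = 0.00607) and by 0.68 ± 0.10 at 5 days (adjusted p = 3.21e-05), where 0.836% and 0.198% of all features were called for sex. Pf4, the other chemokine of platelet granules, was higher in males by 0.29 ± 0.08 (adjusted p = 0.0195) and 0.26 ± 0.06 (adjusted p = 0.0401), below the fold limit. Of 7 markers of platelets and megakaryocytes none was called for genotype at either duration.

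By position, 12 members lie on chromosome 11, which holds most CC genes, and 5 of these were called higher at 1 day and 8 at 5 days. Of the 11 members on chromosome 5, 3 were called higher at 1 day and 5 at 5 days. Over the whole family 12 of 35 members were called higher at 1 day and 18 of 35 at 5 days, beside 1.13% and 1.87% of all features. A pattern by position was not tested. Within that cluster Cxcl15 and Pf4 were not called although Cxcl1, Cxcl3 and Cxcl5 lie beside them, so called and uncalled members adjoin each other.

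The chemokine ligands varied more among βENaC mice than among WT mice. Within groups of like exposure, sex and duration, the SD was larger in βENaC mice for 27 of 35 members at 1 day and for 30 of 35 at 5 days, with a median ratio of 1.33 and 1.39, whereas over all features it was larger for 55.2% and 54.9%, with a median ratio of 1.04 at both durations. It was more than 2-fold larger for 13 members at 1 day and for 11 at 5 days (3.21% and 3.91% of all features). Some of these members were low in WT mice, such as Cxcl3 and Ccl7 with medians of 2.92 and 3.71 at 5 days. Whether that low range narrowed the WT SD was not tested. Without the 3 mice described next the SD was larger in βENaC mice for 26 and 25 members, with a median ratio of 1.27 and 1.21, beside 50% and 45.7% of all features. For each βENaC mouse the number of members above every WT mouse of its duration ran from 3 to 21 with a median of 10 at 1 day, and from 4 to 25 with a median of 15 at 5 days. How many of all features lay above every WT mouse, or were highest, in a given mouse was not counted. In 3 βENaC mice the deviations of Ccl2 and Ccl7 from the group mean were the highest of the 79, namely replicate 1 of the 1-day sham males, replicate 3 of the 5-day sham males and replicate 3 of the 5-day smoke females. The first was the highest mouse of its duration for 16 of the 35 members, with Ccl11 at 10.72, Ccl2 at 8.99 and Cxcl5 at 8.27. They were singled out after their values were seen. Without them 12 members were called for genotype at 1 day, where 1.35% of all features were called, and 17 at 5 days, where 1.95% were called, all higher in βENaC mice. For exposure 0 and 2 members were called at 1 and 5 days without them (1.11% and 1.28% of all features). Ccl24 (adjusted p = 0.0522) and Ppbp (adjusted p = 0.0573) were lost and Ccl7 was gained at 1 day, and Cxcl3 (adjusted p = 0.056) was lost at 5 days. The negative difference of Ccl27b at 5 days also went past 0.05 (adjusted p = 0.0773). The Ccl3 difference was then 1.51 ± 0.21 at 1 day and 2.16 ± 0.18 at 5 days.

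In βENaC mice most of the pairs of related ligands that were tested varied together from mouse to mouse. Residuals from the 16 group means were correlated for 7 pairs that share a receptor, granule or tissue role, in each genotype (14 tests, permutation test with 100000 resamples, two-sided). In the 39 βENaC mice Pearson's r was 0.941 for Ccl2 and Ccl7, which bind CCR2 (Spearman's rho 0.898, each permutation p = 1e-05, the smallest possible, adjusted p = 2.8e-05 and 4.67e-05). It was 0.926 for Ccl6 and Ccl9 (rho 0.918, each permutation p = 1e-05, adjusted p = 2.8e-05 and 4.67e-05), and 0.76 for Ccl17 and Ccl22 (rho 0.82, each permutation p = 1e-05, adjusted p = 2.8e-05 and 4.67e-05). For Ccl3 and Ccl4 r was 0.715 (permutation p = 1e-05, adjusted p = 2.8e-05) and rho 0.613 (permutation p = 8e-05, adjusted p = 0.000187). Without the 2 mice farthest from the median of the first gene r was 0.891, 0.899, 0.738 and 0.612 for these 4 pairs in turn. Without the 3 mice that stand apart (n = 36) it was 0.841, 0.881, 0.736 and 0.527.

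In the 40 WT mice the same 4 pairs gave r = 0.369 for Ccl2 and Ccl7 (permutation p = 0.0187, adjusted p = 0.0262; rho 0.348, permutation p = 0.0279, adjusted p = 0.039). Without the 2 farthest mice this r was 0.278 and no longer passed (permutation p = 0.0917). Both genes were low in WT mice, with medians of 3.82 and 3.71 at 5 days, below the array medians. Whether this low range limited r was not tested. For Ccl6 and Ccl9 r was 0.517 (permutation p = 0.00062, adjusted p = 0.00145) and rho 0.556 (permutation p = 0.00028, adjusted p = 0.00056), and r was 0.447 without the 2 farthest mice. Ccl17 and Ccl22 gave r = 0.364 (permutation p = 0.0211, adjusted p = 0.0269) and rho 0.441 (permutation p = 0.00492, adjusted p = 0.00765), with r = 0.407 without those mice. For Ccl3 and Ccl4 r was -0.163 (permutation p = 0.316, adjusted p = 0.341) and rho -0.0818 (permutation p = 0.615, adjusted p = 0.615). The interferon-induced pair Cxcl9 and Cxcl10 had r = 0.501 in WT (permutation p = 0.00113, adjusted p = 0.00226) and 0.476 in βENaC mice (permutation p = 0.00253, adjusted p = 0.00443), with rho of 0.437 (permutation p = 0.00484, adjusted p = 0.00765) and 0.61 (permutation p = 5e-05, adjusted p = 0.00014), and r was 0.357 and 0.439 without the 2 farthest mice. The platelet pair Pf4 and Ppbp had r = 0.712 in WT (permutation p = 1e-05, adjusted p = 2.8e-05) and 0.172 in βENaC mice (permutation p = 0.296, adjusted p = 0.341), with rho of 0.676 (permutation p = 3e-05, adjusted p = 0.000105) and 0.21 (permutation p = 0.2, adjusted p = 0.215), and r was 0.659 and 0.194 without the 2 farthest mice. Without the 3 mice that stand apart the βENaC values for Pf4 and Ppbp were r = 0.29 (permutation p = 0.0863, adjusted p = 0.101) and rho 0.347 (permutation p = 0.0386, adjusted p = 0.0491), and r for Cxcl9 and Cxcl10 was 0.473 (permutation test, adjusted p = 0.0113). For Ccl19 and Cxcl13 r was 0.153 in WT (permutation p = 0.347, adjusted p = 0.347) and 0.399 in βENaC mice (permutation p = 0.0125, adjusted p = 0.0194), with rho of 0.305 (permutation p = 0.0578, adjusted p = 0.0674) and 0.347 (permutation p = 0.031, adjusted p = 0.0395). Its r was 0.201 and 0.366 without the 2 farthest mice, and 0.306 in βENaC mice without the 3 that stand apart (permutation test, adjusted p = 0.0923). The differences between the genotypes in r were not tested.

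**Figure D3:**
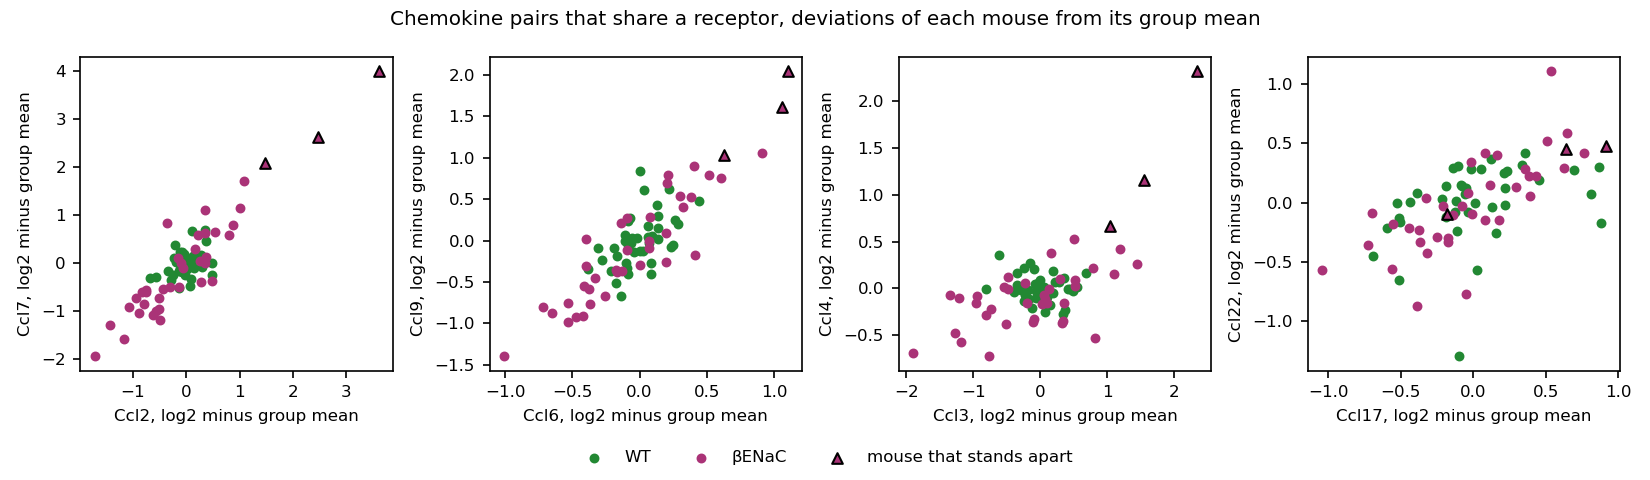
Deviation of each mouse from its group mean (log2 intensity) for 4 pairs of chemokines that share a receptor, with WT mice in green, βENaC mice in purple and the 3 mice that stand apart as triangles. In βENaC mice the points follow a line for Ccl2 and Ccl7 (r = 0.941) and for Ccl6 and Ccl9 (r = 0.926), and the WT mice lie closer to 0 in these panels.

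Few chemokine ligands were called for smoke exposure. At 1 day 1 of 35 members was called for exposure, where 1.07% of all features were called, and at 5 days 2 of 35 members, where 1.15% of all features were called. The median exposure difference over the members was -0.04 at 1 day and -0.11 at 5 days. No member was called higher after smoke at 1 day. Differences with an adjusted p below 0.05 were found for 2 members at 1 day, both negative (9.45% of all features), and for 7 at 5 days, 2 positive and 5 negative (6.53% of all features).

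**Figure D4:**
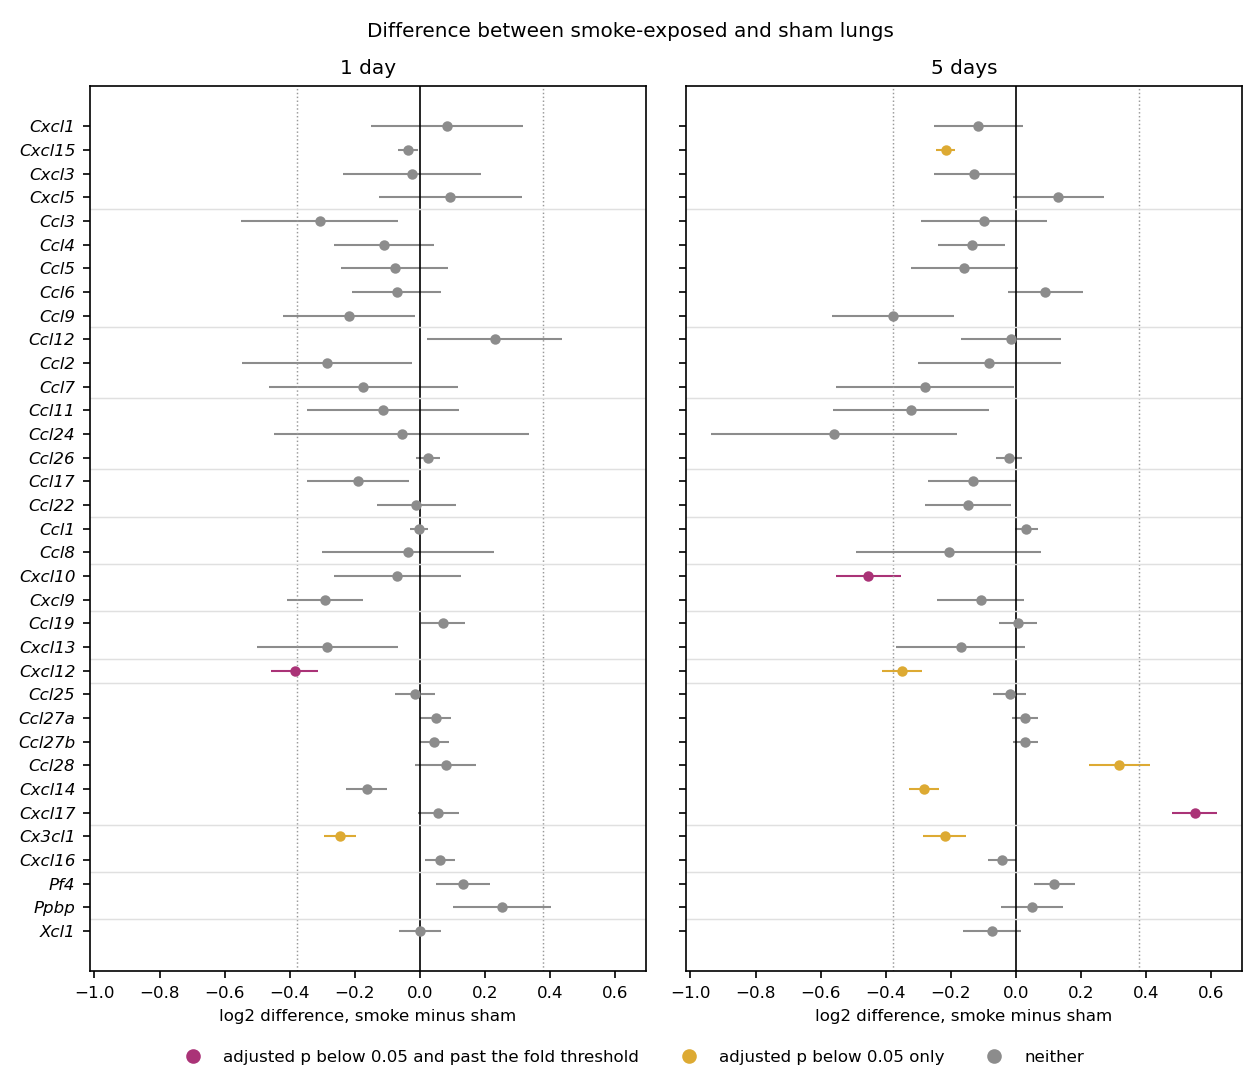
Differences in log2 intensity between smoke-exposed and sham lungs (x axis, smoke minus sham, with the standard error) for the 35 chemokine ligands at 1 day and 5 days, with colours and dotted lines for the same thresholds as for genotype. Cxcl17 stands out on the right at 5 days (0.55), and Cxcl12 at 1 day (-0.39) and Cxcl10 at 5 days (-0.45) are the called members on the left.

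Cxcl17 rose after 5 days of smoke in both genotypes. In sham mice its lowest, median and highest values were 8.22, 8.61 and 8.96 in WT (n = 11) and 8.86, 9.15 and 9.39 in βENaC mice (n = 9) at 5 days. In smoke-exposed mice they were 8.95, 9.21 and 9.71 in WT (n = 9) and 9.13, 9.61 and 9.91 in βENaC mice (n = 10). The WT ranges met at their ends, the βENaC ranges overlapped, and 11 of 19 smoke-exposed mice lay above every sham mouse. The difference was 0.55 ± 0.07, a 1.46-fold change (adjusted p = 4.1e-07), and it was called within WT mice (0.62 ± 0.09, adjusted p = 6.84e-05) and within βENaC mice (0.46 ± 0.09, adjusted p = 0.00451). At 1 day it was 0.06 ± 0.06 (adjusted p = 0.676). The change of the exposure difference between the durations was 0.53 ± 0.14 with exposure and duration alone in the model (adjusted p = 0.0527), and 0.49 ± 0.09 with genotype and sex also in it (adjusted p = 0.0015). Ccl28, the other mucosal chemokine with a positive difference, had 0.32 ± 0.09 at 5 days (adjusted p = 0.0305), which 5 of the 39 fits without 1 mouse took past 0.05, to at most 0.0567.

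Cxcl15, the mouse lung's own neutrophil attractant (lungkine), made by its epithelium, was lower after 5 days of smoke by a small amount. Its lowest, median and highest values at 5 days were 12.25, 12.34 and 12.63 in sham mice and 12.01, 12.13 and 12.42 in smoke-exposed mice. In 16 of 19 smoke-exposed mice Cxcl15 was below every sham mouse. The difference was -0.22 ± 0.03, short of 1.3-fold (adjusted p = 3.78e-06), beside -0.04 ± 0.03 at 1 day (adjusted p = 0.554). The change between durations was -0.17 ± 0.05 (adjusted p = 0.0495), where 0.612% of all features passed, and -0.18 ± 0.04 with genotype and sex in the model (adjusted p = 0.00969), where 1.49% passed. In 48 of the 79 fits without 1 mouse the first of these adjusted p values rose above 0.05, to at most 0.0712.

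Cxcl12 was lower after smoke at both durations. At 1 day its sham values were 8.77, 9.13 and 9.23 in WT and 9.27, 9.58 and 10.09 in βENaC mice, and its smoke values 8.29, 8.66 and 9.03 in WT and 8.85, 9.32 and 9.70 in βENaC mice. The ranges overlapped within each genotype. The difference was -0.39 ± 0.07 at 1 day (adjusted p = 0.000367), and -0.35 ± 0.06 at 5 days (adjusted p = 0.000142), the second short of the fold limit. The first lay so near that limit that 12 of the 40 fits without 1 mouse fell short of it, with the adjusted p at 0.000746 or below in each, and the fit without the 3 mice that stand apart also fell short (-0.37 ± 0.07, adjusted p = 0.000564). Cxcl10 was lower after 5 days, with sham values of 3.97 to 4.83 in WT and 4.34 to 5.33 in βENaC mice and smoke values of 3.39 to 4.27 in WT and 4.10 to 5.05 in βENaC mice. The groups overlapped, and the difference was -0.45 ± 0.10 (adjusted p = 0.00266), beside -0.07 ± 0.19 at 1 day (adjusted p = 0.888). In a single fit over all 79 mice the adjusted p at 5 days was 0.0739. Cx3cl1 (-0.25 ± 0.05 at 1 day, adjusted p = 0.000704) and Cxcl14 (-0.28 ± 0.05 at 5 days, adjusted p = 4.4e-05) differed without reaching 1.3-fold.

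**Figure D5:**
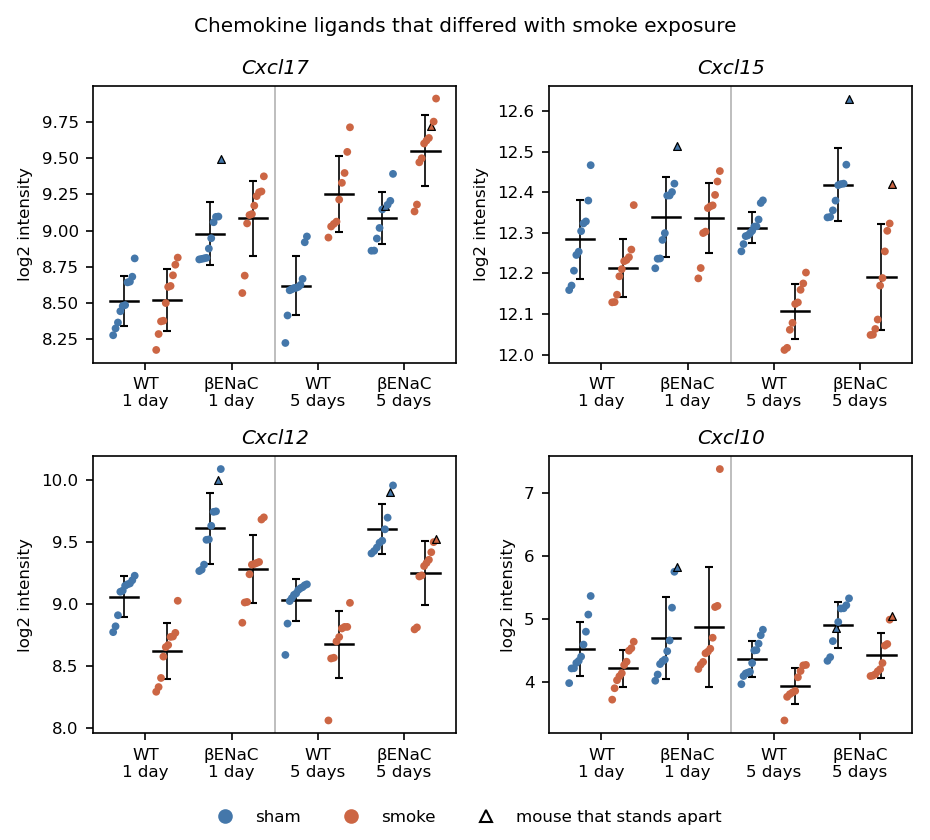
Log2 intensity (y axis, a separate scale in each panel) of 4 chemokine ligands in each mouse, by genotype, duration and exposure, with the mean and SD as bars and triangles for the 3 mice that stand apart. After 5 days the mean of the smoke-exposed mice (orange) is above that of the sham mice (blue) for Cxcl17 and below it for Cxcl15, Cxcl12 and Cxcl10 in both genotypes.

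Whether smoke acted differently in the inflamed lung was tested by adding, to the model, a term that lets the exposure difference vary with genotype and another that lets it vary with sex. No member had an adjusted p below 0.05 in limma's test of both terms at either duration, and of all features 2 passed at 1 day (0.00638%) and 0 at 5 days. At an unadjusted p below 0.05 there were 2 members at 1 day (7.26% of all features) and 4 at 5 days (3.46% of all features). Taken by exposure, the βENaC to WT difference at 5 days was called for 17 members in sham mice and for 6 in smoke-exposed mice, where 2.61% and 0.967% of all features were called. At 1 day it was called for 6 members in sham and 8 in smoke-exposed mice, where 0.826% and 1.44% of all features were called. Read the other way, the exposure difference was called for 1 member within WT mice at each duration (Cxcl12 at 1 day, Cxcl17 at 5 days; 1.25% and 0.89% of all features), and within βENaC mice for none at 1 day and for Cxcl17 at 5 days (0.759% and 0.778% of all features). At 5 days the genotype difference in sham and smoke-exposed mice in turn was 1.29 ± 0.17 and 0.52 ± 0.17 for Ccl17, 1.78 ± 0.34 and 1.06 ± 0.35 for Ccl11, 2.37 ± 0.54 and 1.09 ± 0.55 for Ccl24, and 2.46 ± 0.28 and 2.14 ± 0.29 for Ccl3. The term for Ccl17 was -0.79 ± 0.24 and its adjusted p was 0.94, so the lower count after smoke is not shown to be a difference between exposures.

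The receptors of these ligands were measured in the same lungs. Cxcr1, a receptor for Glu-Leu-Arg CXC ligands, differed by 2.48 ± 0.27 at 1 day (adjusted p = 3.51e-08) and 2.78 ± 0.25 at 5 days (adjusted p = 1.98e-10). At 5 days Ccr1, a receptor for Ccl3, Ccl6 and Ccl9, differed by 0.58 ± 0.16 (adjusted p = 0.0104). For exposure 1 of 19 chemokine receptors was higher at 5 days, Cxcr1 (1.07 ± 0.25, adjusted p = 0.00447), for which the difference was 2.01 ± 0.26 within WT mice (adjusted p = 6.22e-06) and 0.02 ± 0.26 within βENaC mice (adjusted p = 0.99), and 4 were lower: Ccr2 (-0.51 ± 0.10), Ccr3 (-0.91 ± 0.26), Cx3cr1 (-0.49 ± 0.09) and Xcr1 (-0.38 ± 0.09). The exposure by genotype term for Cxcr1 was -2.01 ± 0.39 (adjusted p = 0.288). No atypical receptor of the 5 measured was called. Of 15 cytokines and feedback genes that accompany chemokine induction, 5 were called higher in βENaC mice at 1 day (Tnf, Il1a, Il6, Il33 and Csf2) and 6 at 5 days, Il4 being added. Over all features 1.13% and 1.87% were called higher. The greatest genotype difference of the 15 was that of Il1a, by 0.82 ± 0.19 at 1 day and 1.08 ± 0.15 at 5 days (adjusted p = 0.00349 and 1.15e-06). For exposure none of the 15 was called at 1 day. At 5 days Il1b alone was called, lower after smoke, where 1.15% of all features were called.

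Markers of cells that make or follow chemokines were also counted. With genotype, 4 of 5 goblet cell markers were called higher at both durations, and the mean over the 5 ran from 4.53 to 6.63 in WT and from 6.05 to 7.81 in βENaC mice at 5 days. Of 7 dendritic cell markers 2 were called higher at each duration, with list means of 5.69 to 6.497 in WT and 6.28 to 7.17 in βENaC mice at 5 days. Of 7 alveolar macrophage markers 3 were higher (Marco, Mrc1 and Atp6v0d2) and 2 lower (Fabp1 and Krt79), with list means of 7.49 to 7.88 in WT and 7.29 to 8.05 in βENaC mice at 5 days. Of 8 neutrophil markers 1 was called, Ltf, and the list means were 5.63 to 7.24 in WT and 5.85 to 6.91 in βENaC mice at 5 days. Of 5 eosinophil markers none was higher and Ear1 was lower. Chil3, 1 of 6 classical monocyte markers, was called higher at both durations. All 3 club cell markers were lower at an adjusted p below 0.05 at both durations, beside 2.29% and 5.33% of all features. Of these Cyp2f2 was called, at 5 days. Of 5 lymphatic endothelial markers Lyve1 was called lower at both durations and Prox1 higher at 1 day. Of 6 T and NK cell markers Ncr1 was called lower at 1 day. With smoke, 4 of 6 classical monocyte markers were lower at 1 day and 2 at 5 days, with list means of 8.36 to 8.96 in sham and 7.65 to 8.64 in smoke-exposed mice at 5 days. With smoke at 1 day, 2 of 7 B cell markers were called lower, Cr2 (-0.49 ± 0.12) and Fcer2a (-0.65 ± 0.16). Of the 8 neutrophil markers Retnlg alone was called (-0.66 ± 0.19), in a list that ran from -0.66 to 0.12. With smoke at 5 days, 2 of 5 fibroblast markers were called lower, Col1a1 (-0.39 ± 0.12) and Tcf21 (-0.38 ± 0.06). Of the 5 goblet cell markers Clca3 (-1.61 ± 0.48) was called lower and Agr2 (0.67 ± 0.13) higher. Of the 7 alveolar macrophage markers Fabp1 alone was called (-1.13 ± 0.14), with a list median of 0.04 and a highest difference of 0.44. Of the 5 lymphatic endothelial markers Lyve1 alone was called with smoke, higher at both durations (0.52 ± 0.09 and 0.61 ± 0.08). The list ran from -0.12 to 0.52 at 1 day, when 1 marker was lower at an adjusted p below 0.05, and its medians were 0.08 and 0.06. Of 6 fat markers Lep alone was called at 5 days (0.52 ± 0.15), in a list that ran from -0.21 to 0.65. Beside these counts, 1.54% and 2.52% of all features were called for genotype at 1 and 5 days, and 1.07% and 1.15% for exposure. The part of these cell types in the chemokine differences was not tested.

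Replicate 2 of the 1-day smoke-exposed βENaC females stood apart in thymus markers, with a list mean of 5.34 against at most 3.85 in the other mice, and in T and NK cell markers (7.65 against at most 6.9). Of the 35 chemokine ligands it was the highest mouse of its duration for Ccl25 alone (5.49), the ligand of CCR9 that thymus and gut epithelium make. Without it 12 members were called for genotype at 1 day, Ccl24 being lost, where 1.54% of all features were called, and 1 member for exposure, where 1.13% were called.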

How the data were processed

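Total RNA of 79 mouse lungs was hybridised to Affymetrix moGene2.1 arrays. The authors normalised the arrays by RMA (Expression Console 1.4 and Partek 6.6 are named in the submitters' processing notes) and deposited log2 intensities, 1 row per feature, which were used as deposited. The genome build of the array annotation is not given in the sources used here. Of 31350 features, 2537 were named from identifiers listed with the study, 19296 from the RefSeq gene table and 9517 had no symbol. A gene with several rows was represented by its brightest row. Precision is limited by how many arrays each group has.

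Groups came from the sample titles, whose group sizes match those in the study's methods. In R 4.3.3, limma 3.58.1 (lmFit and eBayes) fitted exposure, genotype and sex to each duration, as in the study's methods but with moderated variances, with Benjamini-Hochberg adjustment over all features. Members were called at an adjusted p below 0.05 and above 1.3-fold. Replicates are separate mice. The fit was tested on simulated data. A member was described in full if it was called for genotype, exposure or exposure by duration. Correlations, promoter windows and figures were made in Python 3.11.15. The members and lists were chosen with earlier results of these data known. Ccl27a and Ccl27b are near-identical copies and their values are uncertain.

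Alternatives were an ordinary linear model, 1 fit over all mice, median centring, quantile normalization, omission of the lowest 30% of features, 1 row per symbol, array weights, a trended robust prior, a replicate block, other fold thresholds and omission of each mouse. Omission of 3 mice was added after seeing the data.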

Additional observations from a re-analysis of the deposited data

Results flagged for a closer look

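Of 320 sets of values (20 members in 16 groups of 4 to 6 mice), 30 held a highest or lowest mouse that stood far from the nearest other mouse of its group for its size, where chance marks about 5 percent of groups. Of the 30 values, 7 lay in the 3 βENaC mice that stand apart. Replicate 3 of the 5-day smoke-exposed βENaC females was the highest of its group for Ccl11 (9.76), Ccl2 (7.11), Ccl24 (8.69), Ccl7 (7.01), Ccl9 (11.35) and Cxcl3 (4.48), where the next mouse was at 6.81, 4.51, 3.76, 3.88, 9.2 and 3.13. Replicate 1 of the 1-day sham βENaC males was the highest for Cxcl3 (6.42, next 3.2).

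Cxcl3 was also highest in replicate 4 of the 1-day smoke-exposed βENaC females (5.45) and replicate 1 of the 1-day smoke-exposed βENaC males (4.64). Ccl28 was highest in replicate 5 of the 1-day sham βENaC males (5.4) and replicate 4 of the 5-day sham βENaC males (4.49). Ccl17 was lowest in replicate 3 of the 1-day smoke-exposed βENaC males (6.98), Ppbp in replicate 2 of the 5-day sham βENaC males (8.0), and both Cxcl15 (12.36) and Ppbp (7.95) in replicate 4 of the 5-day sham βENaC females.

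Among WT mice at 1 day, the sham females held Ccl12 at 5.88 (replicate 3, highest), Ccl2 at 3.56 (replicate 1, lowest) and Ccl24 at 6.16 (replicate 5, highest). Ccl3 was 6.32 in replicate 3 of the sham males (highest). In the smoke-exposed females Cxcl15 was 12.37 in replicate 5 (highest) and Cxcl5 was 3.47 in replicate 3 (lowest). Among WT mice at 5 days, replicate 2 of the smoke-exposed females held Ccl12 at 3.93 (lowest), Ccl22 at 5.16 (lowest) and Cxcl3 at 3.36 (highest), and replicate 3 held Ccl17 at 8.07 (highest). Replicate 5 of the sham males held Ccl22 at 5.67 and Cxcl17 at 8.22 (both lowest), replicate 1 Ccl8 at 5.78 (highest) and replicate 2 Cxcl12 at 9.05 (lowest). Ccl9 was 8.75 in replicate 3 of the smoke-exposed males (highest).

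The exposure difference changed between 1 and 5 days for Cxcl15, by -0.17 with exposure and duration in the model and by -0.18 with genotype and sex added, and for Cxcl17 by 0.49 in the second model.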

How the results depend on the processing

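The genotype counts of 13 (1 day) and 18 (5 days) stayed within 1.5-fold under each alternative run. For exposure at 1 day the count of 1 became 0 without the 3 mice that stand apart, 2 with no fold threshold and 0 at 1.5-fold, and at 5 days the count of 2 became 1 in a single fit over all mice, 7 with no fold threshold and 0 at 1.5-fold. With no fold threshold the sex counts of 1 became 3 at 1 day and 2 at 5 days. The exposure by duration count of 1 became 2 with the other factors crossed with duration, and 2 with arrays centred on the median. Over fits that omitted 1 mouse each, the counts ran from 10 to 14 and from 17 to 19 for genotype at 1 and 5 days, from 0 to 1 and from 2 to 2 for exposure, from 1 to 2 and from 1 to 1 for sex, from 0 to 2 for exposure by duration, and from 0 to 0 for genotype by duration and for exposure by genotype and sex. For single members 516 values kept their direction and side of the threshold under the other alternatives, 17 lost and 2 gained significance or the fold limit, and none reversed; the Ccl24 genotype difference at 1 day had an adjusted p of 0.0624 in an ordinary linear model and 0.057 with a trended robust prior. In a single fit over all mice the adjusted p at 5 days was 0.0923 for Ccl4, 0.121 for Cxcl3 and 0.0804 for the sex difference of Pf4. The causes were not tested. Signal over background was not measured here.

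With the replicate number as a block, 12 members were called for genotype at 1 day (Ccl24 lost, adjusted p = 0.0539) and 17 at 5 days (Cxcl17 lost, its log2 difference of 0.37 being short of 1.3-fold), 1 and 2 for exposure, 1 and 1 for sex, and 0 and 0 for exposure by genotype and sex. The mean correlation of deviations was 0.015 for same-numbered mice and -0.003 for other numbers, and 75 of 266 same-numbered pairs were above 0.1. Of 79 mice, 29 were closest to one of their own number, where the share of that number alone gives 15.4. Whether the numbers follow a shared litter or day was not tested. No label ties them to either, so the main fits do not pair the mice.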
